A study of Drosophila melanogaster with 5 samples.

Results

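The regions around 6 transcription factor genes of Drosophila melanogaster, srp, GATAe, pnr, Doc1, Doc2 and Doc3, were examined for open chromatin in sorted midline cells and in whole embryos. All FAIRE-seq peaks of both deposited peak lists were taken whose midpoint lay in either of 2 windows of the dm3 genome build. The GATA window ran from 11750000 to 11900000 of 3R and is the region given for srp, GATAe and pnr. The Dorsocross window ran from 8980000 to 9080000 of 3L and is the region given for Doc1, Doc2 and Doc3. The windows held 71 of the 20000 peaks in all, 40 in the GATA window and 31 in the Dorsocross window. Membership depends on position alone, although the windows were chosen with earlier results of these data known.

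In FAIRE-seq, crosslinked and sheared chromatin is extracted with phenol. DNA bound to nucleosomes is held back with the protein, and the nucleosome-free DNA left in the aqueous phase is sequenced. The midline group was 2 libraries of cells from embryos of the strain sim3.7-Gal4 UAS-mCD8::GFP, aged 6 to 8 hours, sorted by their GFP. Here an enhancer of single-minded drives the yeast activator Gal4, which in turn switches on a membrane GFP, and cells are marked wherever that enhancer is active. The embryo group was 2 libraries of whole OregonR embryos of the same age. A library of genomic DNA from adult virgin females of the strain y;cn,bw,sp is labelled as the input and was not analysed here. Midline cells were dissociated and sorted before 5 minutes of fixation, whereas embryos were fixed intact for 10 minutes, so cell type, strain and handling cannot be told apart in any difference below.

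The authors pooled the replicates of each group before calling peaks. Each list holds 10000 peaks with 1 score each, so no value has a replicate error, the read depth is unknown and no difference between the groups can be tested. Intervals below are exact Clopper-Pearson 95% intervals and cover the counting of peaks only.

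Serpent (srp), GATAe and Pannier (pnr) are GATA factors, zinc finger proteins that bind the sequence GATA. Serpent is needed for blood cells, fat body and endoderm, GATAe for the differentiating midgut, and Pannier for the dorsal ectoderm and heart. Doc1, Doc2 and Doc3 are T-box factors that act redundantly in the amnioserosa, the extraembryonic tissue that covers the dorsal side, and in the dorsal ectoderm and heart. These tissues lie away from the ventral midline of the nervous system, where neurons and glia form under the control of single-minded. The files hold no expression values, so whether the 6 genes were silent in the sorted cells could not be checked.

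In the order of the RefSeq Release 6 gene table, which holds all 6 symbols, srp comes first, then 2 long noncoding RNA genes (CR44133 and CR42839), GATAe and pnr. Hel89B lies before srp and Jhbp4 after pnr. On 3L, the order is Doc3, CG5194, Doc2, the long noncoding RNA gene CR46451 and Doc1, with CG5087 before them and Argk2 after. That table is on another build than the peaks, so it gives the neighbours only, and no peak is assigned to a gene or to a promoter, exon or intron. Where the 6 genes lie within the windows could not be checked, so a peak may be closer to another gene.

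Open chromatin was called in both windows in midline cells as well as in whole embryos, and about as many peaks were listed from each. Both lists were cut to 10000 peaks, so similar counts are not a result about these windows. The GATA window held 22 midline and 18 embryo peaks. The Dorsocross window held 14 midline and 17 embryo peaks. Both held more peaks than the median window of the same length. Among 795 windows of 150 kb laid end to end along the 5 chromosome arms, the median was 11 midline and 12 embryo peaks, 15.2% held at least 22 midline peaks, and 22.8% held at least 18 embryo peaks. Among 1192 windows of 100 kb the median was 7 in each list, 20.6% held at least 14 midline peaks, and 9.82% held at least 17 embryo peaks.

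Peaks with an overlap of 1 bp or more between the lists were counted as shared. The shared part was larger in the Dorsocross window than in the GATA window, a difference that pooled lists do not allow to be tested. This difference was not kept for midline peaks when both lists were cut to their 5000 highest-scoring peaks (below). In the Dorsocross window, 12 of 14 midline peaks were shared with the embryo list (85.7%, interval 57.2 to 98.2%), against 60.9% of all midline peaks. In the GATA window, 11 of 22 were shared (50%, 28.2 to 71.8%). Seen from the embryo list, 13 of 17 peaks in the Dorsocross window were shared (76.5%, 50.1 to 93.2%) and 10 of 18 in the GATA window (55.6%, 30.8 to 78.5%), against 56.6% of all embryo peaks. The midline-only peaks were therefore 2 in the Dorsocross window and 11 in the GATA window, where 39.1% of all midline peaks are midline-only, and the embryo-only peaks 4 and 8, where 43.4% of all embryo peaks are embryo-only. The intervals of the 2 windows overlap, and each of the 4 includes the value of its whole list. When sharing required a reciprocal overlap of 50%, 7 of 22 midline peaks in the GATA window (31.8%) and 11 of 14 in the Dorsocross window (78.6%) were shared, against 46.8% of all midline peaks. Of the embryo peaks, 7 of 18 in the GATA window (38.9%) and 11 of 17 in the Dorsocross window (64.7%) met that rule, against 46.8% of all embryo peaks. When each list was limited to its 5000 highest-scoring peaks, the windows had nearly equal shares of midline peaks. These were 8 of 11 in the GATA window (72.7%) and 5 of 7 in the Dorsocross window (71.4%). For embryo peaks the shares were then 7 of 15 in the GATA window (46.7%) and 5 of 10 in the Dorsocross window (50%). The shares of all peaks under this cut were not computed, so these values cannot be called high or low. This cut also removes weak partners of strong peaks. Against the full other list, 6 of 7 midline peaks within rank 5000 were shared in the Dorsocross window (85.7%). In the GATA window 8 of 11 were (72.7%), against 82.25% of all such midline peaks. Of embryo peaks within rank 5000, 9 of 10 (90%) and 10 of 15 (66.7%) were shared in that order, against 79.4% of all such peaks. With weak partners kept, the shares in the Dorsocross window were again the larger ones, and those of all such peaks lay between the 2 windows. These shares rest on 7 to 15 peaks per window and list, and their difference was not tested.

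**Figure D1:**
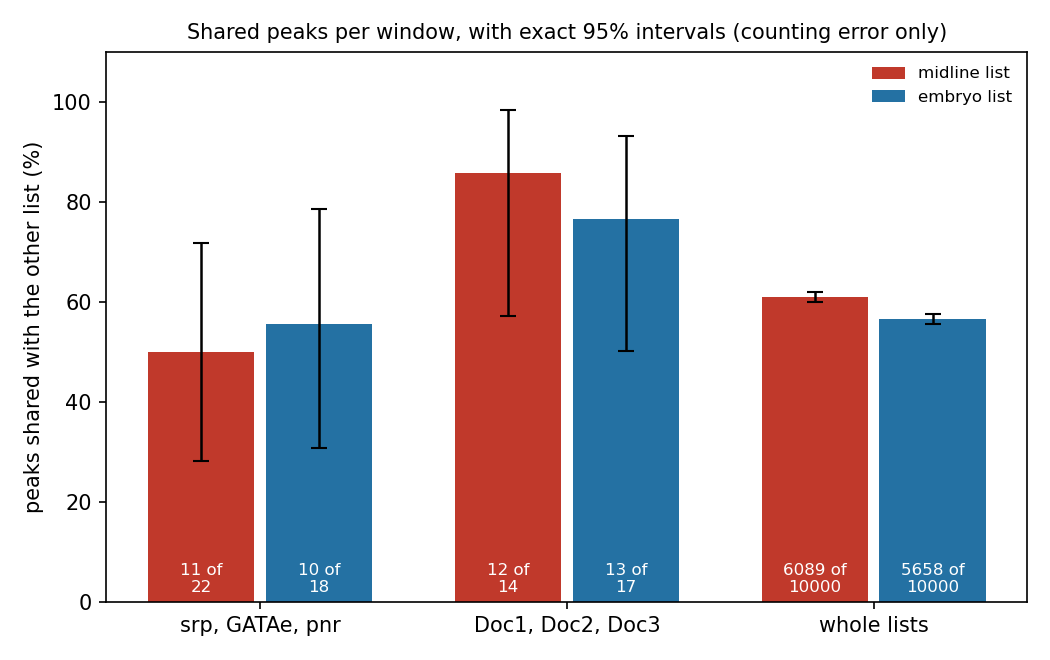
Share of peaks that overlap a peak of the other list, in percent, for the window of srp, GATAe and pnr, the window of Doc1, Doc2 and Doc3, and the whole lists, with midline peaks in red and embryo peaks in blue. Black bars are exact 95% intervals for counting error, and the numbers in the bars are shared peaks of all peaks. Sharing is highest in the Dorsocross window, 85.7% of midline and 76.5% of embryo peaks, but its intervals reach down to 57.2 and 50.1%. With both lists cut to their 5000 highest-scoring peaks, which is not drawn, 72.7% of midline peaks were shared in the GATA window and 71.4% in the Dorsocross window. The share of all peaks under that cut was not computed.

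In bases, the overlap was 4.183 kb in the Dorsocross window, which is 77.9% of the 5.373 kb under midline peaks and 56.4% of the 7.417 kb under embryo peaks. In the GATA window it was 4.777 kb, or 60.3% of the 7.921 kb under midline peaks and 52.8% of the 9.051 kb under embryo peaks. Over the whole lists these shares were 63.7 and 51.6%.

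In the window of srp, GATAe and pnr, the highest midline peaks were all shared with the embryo. Scores are the authors' own whole numbers of unstated scale and are read only within a list, where rank 1 is the highest and tied peaks take their mean rank. The strongest midline peak lay at 11859883 to 11860308 of 3R with a score of 261 (rank 1222.5), inside an embryo peak with a score of 461 (rank 1316). Close behind came the peaks at 11799121 to 11799734 (score 256, rank 1285) and at 11798760 to 11799073 (score 244, rank 1394). These adjacent midline peaks both fell within 1 embryo peak at 11798553 to 11799974 of 1422 bp, the widest of the window (score 575, rank 833).

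The midline peak at 11851463 to 11852038 (score 244, rank 1394) lay wholly inside an embryo peak at 11851428 to 11852070, which had a score of 702 and rank 515.5. The fifth, at 11897468 to 11898601, was the widest midline peak of the window at 1134 bp and had a score of 195 (rank 2104.5), against 473 (rank 1254) for its embryo partner. None of the 22 midline peaks of the GATA window ranked among the first 1000 of its list, against 10% of all midline peaks. Of its 18 embryo peaks 3 did, against 9.99% of all embryo peaks. With so few peaks, neither count was tested against these shares. The other 6 shared midline peaks had scores between 46 and 186.

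The highest embryo peak of the GATA window was matched by only a weak midline peak. It lay at 11819881 to 11820808 of 3R, was 928 bp wide and had a score of 792 (rank 365.5). The midline peak within it, at 11819975 to 11820410, had a score of 74 and rank 6279. Its neighbour at 11818707 to 11819297, with an embryo score of 462 (rank 1311), covered a midline peak with a score of 146 (rank 3141.5). Those at 11861399 to 11861778 and at 11847637 to 11848196 had embryo ranks of 2870 and 4056.5, and their midline counterparts ranked 9511 and 8175.5. The reverse was seen at 11760724 to 11761207, where the midline peak had rank 2629 and its embryo partner rank 4363.

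The 11 midline-only peaks of the GATA window were mostly weak. Their scores ran from 53 to 174 with a median of 76, against a median of 186 for the 11 shared midline peaks, and their median width was 223 bp against 426 bp. Over the whole midline list, midline-only peaks had a median score of 64 and shared peaks 136. The strongest lay at 11824629 to 11824901 with a score of 174 (rank 2483.5), beside a further midline-only peak at 11823938 to 11824198 (score 97). An embryo-only peak at 11825105 to 11825269 (score 164, rank 4733.5) began 203 bp beyond the end of the stronger of them, so that here peaks of either list adjoin without overlapping. The peaks at 11763139 to 11763358 (score 101) and at 11762098 to 11762359 (score 86) belonged to a run of 4 midline-only peaks next to the shared peak at 11760724. That group of 5 midline peaks spanned 3.2 kb, with 1 embryo peak. The fifth by score, at 11798109 to 11798251 (score 77), lay 301 bp from the wide embryo peak already described.

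The 8 embryo-only peaks of the GATA window had scores between 90 and 192, with a median of 164.5 against 461.5 for the 10 shared embryo peaks. The highest, at 11814990 to 11815271, had a score of 192 (rank 4025.5), and its nearest midline peak was 1759 bp away. The next were at 11821119 to 11821330 (score 191), 11828206 to 11828638 (score 187), 11894988 to 11895332 (score 165) and the already named 11825105 to 11825269 (score 164). Of the 8, 4 lay in the central stretch between 11813073 and 11828638, which held 5 midline peaks, 3 of them midline-only, and 6 embryo peaks. The last 3 groups of the window, from 11847601 to 11898601, held 6 midline peaks, and each of these overlapped an embryo peak. Groups of peaks were formed by joining peaks of both lists less than 5 kb apart, a distance chosen after the peaks had been seen.

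**Figure D2:**
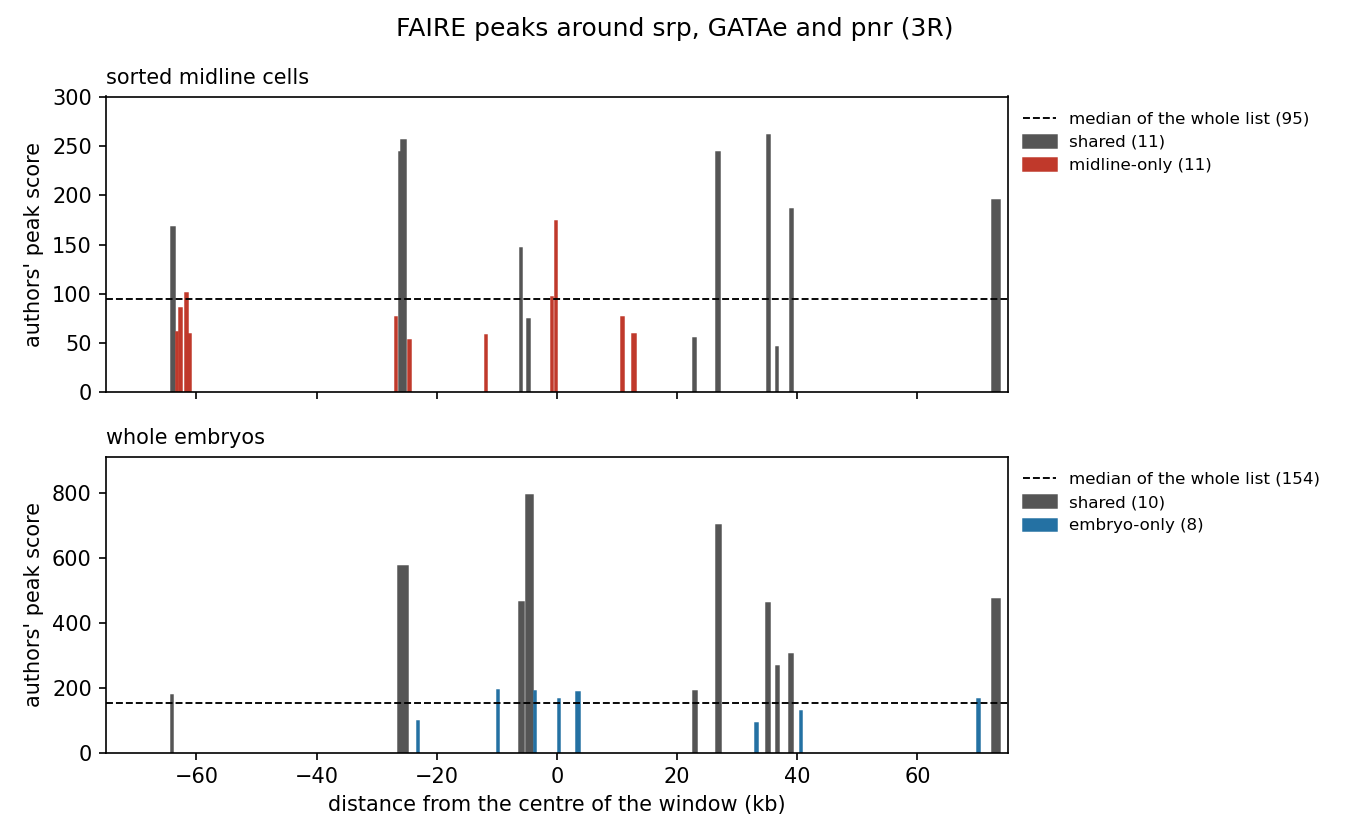
Peaks of the window of srp, GATAe and pnr by distance of their midpoint from the window's centre in kb, with sorted midline cells above and whole embryos below. Bar height is the authors' score on a separate scale for each list, bar width is the peak width with a thin outline, grey marks shared peaks and red or blue those of 1 list, and the dashed lines are the medians of the whole lists, 95 and 154. The tallest embryo bar, with a score of 792, stands where the midline bar has a score of 74, and the midline-only bars are mostly below the dashed line.

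In the window of Doc1, Doc2 and Doc3, the 3 strongest midline peaks each lay inside 1 of the 4 strongest embryo peaks. The highest midline peak lay at 9033993 to 9034540 of 3L with a score of 404 (rank 396.5), inside an embryo peak at 9033835 to 9034706 with a score of 817 (rank 317.5). The midline peaks at 8990939 to 8991360 (score 323, rank 737.5) and at 8997847 to 8998373 (score 296, rank 924) were likewise enclosed by embryo peaks, with scores of 722 (rank 478) and 860 (rank 262). The embryo peak with a score of 860 is the highest of the window. These 3 midline peaks were among the first 1000 of their list, out of 14 in the window, against 10% of all midline peaks.

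The remaining embryo peak of the first 1000, the third highest of the window, at 9012194 to 9012885 with a score of 783 (rank 378.5), had a midline partner of middling strength at 9012285 to 9012711 (score 136, rank 3403.5). The midline peak at 9035075 to 9035832 (score 175, rank 2460.5) ranked close to its embryo partner (score 268, rank 2846.5). The fifth midline peak by score, at 9044834 to 9045493 (score 149, rank 3029.5), was 660 bp wide and spanned 2 narrow embryo peaks. The one it overlapped most had a score of 76 and rank 9363, the widest gap in rank towards the midline among the pairs of both windows. In the other direction, the midline peaks at 8990236 to 8990534 (rank 9847.5) and at 9050688 to 9050913 (rank 8636.5) met embryo peaks of ranks 4284 and 3501.5.

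Both midline-only peaks of the Dorsocross window were of medium strength. The first, at 9043595 to 9044012, had a score of 115 (rank 4130.5) and lay 758 bp from the nearest embryo peak, close to the midline peak that spanned 2 embryo peaks. The second, at 9025385 to 9025608, had a score of 82 (rank 5768.5) and stood alone, 7.921 kb from any embryo peak in the list. The 4 embryo-only peaks were at 9004569 to 9004960 (score 198), 9016962 to 9017463 (score 128), 9010173 to 9010472 (score 105) and 9051131 to 9051474 (score 89). All but the third of them began or ended within 181 to 217 bp of a midline peak, so 3 of the 4 flank a region that was open in both lists. Over the whole embryo list, 23.4% of embryo-only peaks lay within 1 kb of a midline peak, and in the GATA window 2 of 8 did (25%).

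**Figure D3:**
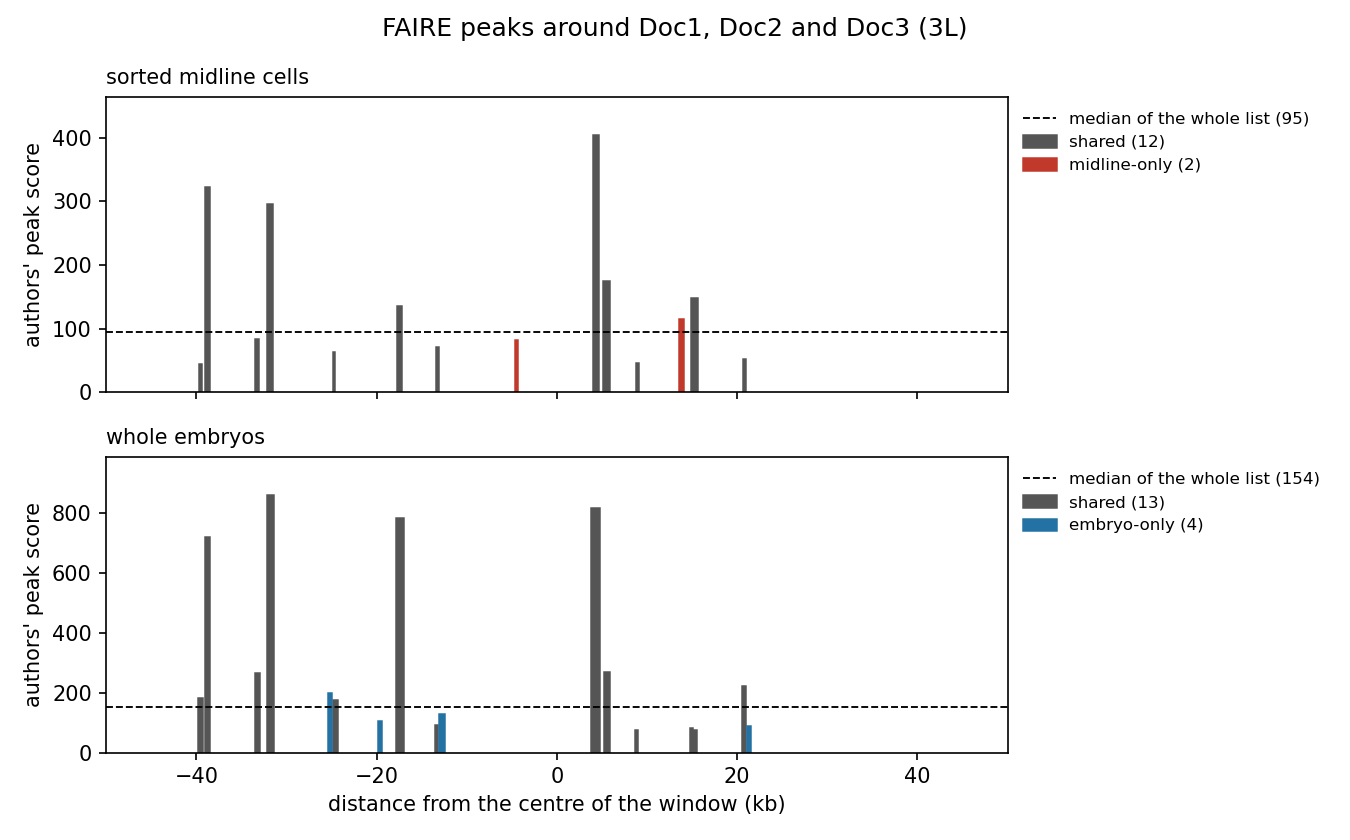
Peaks of the window of Doc1, Doc2 and Doc3 by distance of their midpoint from the window's centre in kb, with sorted midline cells above and whole embryos below, drawn as for the GATA window. Grey bars are shared peaks, red and blue bars are those of 1 list, and the dashed lines are the medians of the whole lists, 95 and 154. The 3 tallest midline bars, with scores of 404, 323 and 296, coincide with embryo bars of 817, 722 and 860.

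Shared peaks at these loci mostly ranked lower among midline peaks than their partners did among embryo peaks. Each shared midline peak was paired with the embryo peak that it overlapped most, which gave 23 pairs on 22 embryo peaks. The embryo peak had the better rank in 17 of the 23 pairs (73.9%, interval 51.6 to 89.8%), against 53.6% of the 6089 pairs of the whole lists. By window these were 8 of 11 in the GATA window and 9 of 12 in the Dorsocross window. The median rank was 2256.5 in the midline list against 1311 in the embryo list for pairs of the GATA window. For the Dorsocross window the median was 4532.5 among midline peaks, against 3185.75 among their embryo partners, and over all pairs it was 3403.5 and 3009 in that order. The interval for the 23 pairs includes the value of all pairs.

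**Figure D4:**
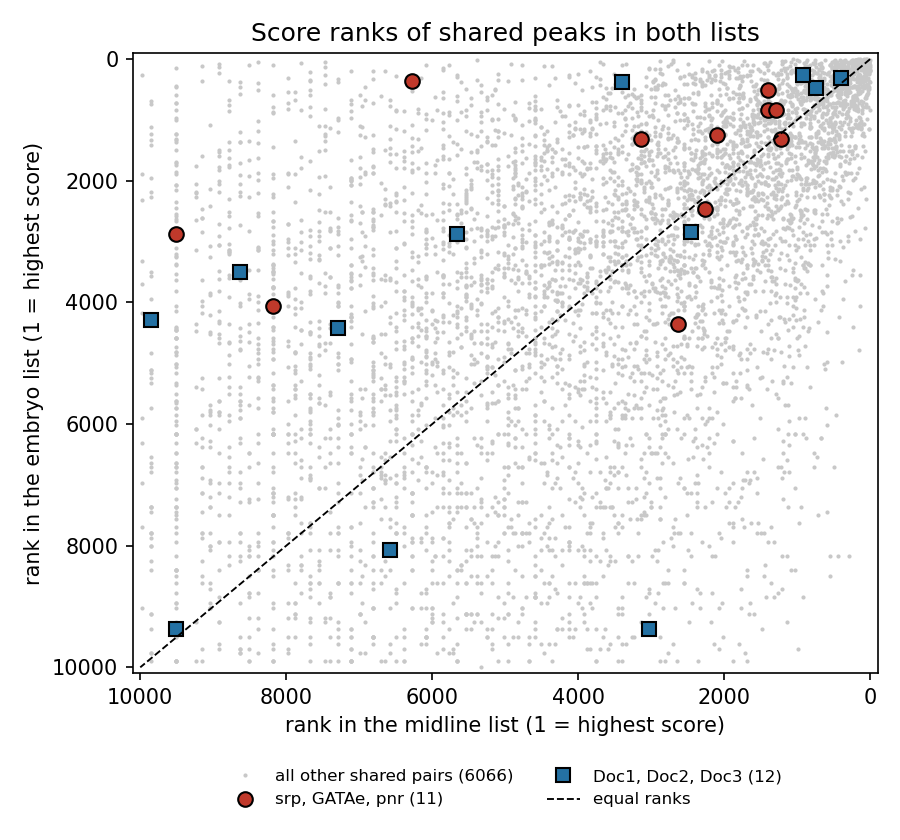
Score rank in the midline list (x axis) against score rank in the embryo list (y axis) for shared pairs, with 1 the highest score and both axes running towards it. Red circles are 11 pairs of the GATA window, blue squares 12 pairs of the Dorsocross window and grey dots the other 6066 pairs, and the dashed line marks equal ranks. Of the 23 marked pairs, 17 lie above the line, where the embryo rank is better.

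Ranks over all peaks of the windows, shared ones included, were as follows. Of 36 midline peaks, 3 ranked in the first 1000 of their list, against 10% of the list as a whole, and of 35 embryo peaks 7 did, against 9.99%. The median rank of midline peaks was 5229.5 in the GATA window and 4896 in the Dorsocross window, against 5022 in the whole list. The Dorsocross median became 3403.5 with the window widened by 25 kb at each side, and its median rank by peak width was 3143.5. For embryo peaks it was 4041 and 4284, against 5007.5. The 95% binomial interval of the median included that of the whole list for midline peaks of both windows and for embryo peaks of the Dorsocross window. For embryo peaks of the GATA window it ran from 1311 to 4713.5 and did not. A higher score from more cells with an open region and one from a more open region in each cell cannot be told apart in these bulk libraries.

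Midline peaks were narrower than their embryo partners in 18 of the 23 pairs, or 78.3%, against 80.1% of all pairs, so the members did not stand out in this. The median ratio of midline to embryo width was 0.736, against 0.766 over all pairs, and the midpoints of partners lay a median of 41.5 bp apart.

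A peak missing from a list of 10000 need not be missing from the data. Each peak name ends in a number, and these numbers increase along every arm with gaps. If they were given before the 10000 were chosen, the missing numbers count weaker calls that were left out. On that assumption, only 1 of the 13 midline-only peaks lay where the longer embryo list had no further call between its flanking peaks, namely the weak peak at 11800280 to 11800467 (score 53). Over the whole midline list this held for 19.8% of midline-only peaks. Of the 12 embryo-only peaks, 3 lay between midline peaks with consecutive numbers, all in the GATA window and the highest at 11814990 to 11815271, against 30.4% over the whole embryo list. The midline-only pair at 11835692 to 11835914 and 11837565 to 11838008 (scores 76 and 59) lay 7.053 and 8.926 kb from the listed embryo peaks, but 10 embryo calls were left out between those flanks. Likewise 9 were left out around the isolated midline-only peak at 9025385 in the Dorsocross window. The positions of these calls are unknown.

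The limits of the windows lay away from most peaks. At the lower limit of the Dorsocross window, a shared peak at 8979637 to 8979967 in the midline list (score 175) and its embryo partner at 8979598 to 8979996 (score 420) were just outside, with midpoints 0.2 kb from the limit, and the first peaks inside lay 10.38 and 10.36 kb within it. Below the GATA window, a shared midline peak (score 187) and its embryo partner (score 886) had midpoints 3.36 and 3.29 kb outside. At the upper limits the last peaks inside the GATA window were the shared ones at 11897468 (midline) and 11897485 (embryo), and the next midline and embryo peaks lay 19.95 and 20.46 kb outside. Above the Dorsocross window they lay 38.48 and 18.55 kb outside.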

How the data were processed

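Going by file and peak names, the authors pooled the replicates of each group, called peaks with MACS2 and deposited the 10000 top peaks of each group. Per the submitters' processing notes, CASAVA 1.8.2, Bowtie2, SAMtools and bedtools were also used, on dm3. Neither their settings nor how the input entered are given in the sources used here. The deposited score is a whole number of unstated scale, used only to rank peaks within a list.

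From these files, peaks were assigned to windows by midpoint, and overlaps (at least 1 bp), gaps, ranks and exact intervals were computed with pandas 2.3.3, scipy 1.17.1 and numpy 2.4.6 under Python 3.11.15, and drawn with matplotlib 3.10.9. Coordinates are 1-based. The counting was checked on simulated lists with known overlap. The peaks given with coordinates are the 5 highest-scoring midline-only, shared midline and embryo-only peaks of each window. Other peaks were named after their values were seen. The windows and genes were chosen with earlier results of these data known. Alternatives changed the overlap rule, peak width, list length, window limits and measure of strength. No dm3 genome or annotation was used here, so the planned sequence and motif description was not made, and no sequence is shown.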

Additional observations from a re-analysis of the deposited data

How the results depend on the processing

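Of 60 values recomputed under other settings for 12 results, 57 stayed within 1.5 times the count or within the 95% interval of the original value, intervals that are wide for so few peaks. The other 3 arose when each list was cut to its 5000 highest-scoring peaks. In the GATA window the shared part of the midline peaks then became 72.7% and the midline-only count 3. In the Dorsocross window the shared part of the embryo peaks became 50%. Midline sharing in the Dorsocross window was then 71.4% and embryo sharing in the GATA window 46.7%. Under this cut the windows were nearly equal for midline peaks and closer to each other for embryo peaks, on few peaks each. The shares of all peaks under the cut were not computed, so these values cannot be called high or low. That alternative drops the weak peaks of either list by construction, including weak partners of strong peaks. No paired analysis was possible because each peak list merges its replicates, and for the same reason neither replicate could be left out. Read depth is unknown, so a peak absent from a list was not shown to be closed.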
